A study of Mus musculus with 31 samples.

Results

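The integrated stress response genes Gdf15, Fgf21, Atf4, Atf5, Atf3, Ddit3, Asns, Chac1, Trib3 and Sesn2 were followed in the uterus of mice given estradiol. They were found by their gene names on the arrays, where 11 of the 55681 probes belong to them, 2 for Atf4 and 1 for each of the others. All 10 genes passed the filter on dim probes, among 27060 genes tested, but Fgf21 passed only through the groups in which it was high and is left out of all counts of tested members. The members were chosen by their log2 changes with estradiol in AF2 WT uterus, which were already known, and Gdf15 and Fgf21 also by those in AF2 KO. Values of the AF2 WT response, and every difference that contains it, are therefore a description with no test, as are those of Gdf15 and Fgf21 in AF2 KO.

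Uterine RNA of ovariectomised mice was hybridised to 31 single-colour arrays, 1 per sample. The groups were AF2 KO E2 with 3 arrays, and AF2 WT E2, AF2 KO placebo, AF2 WT placebo, MISS KO E2, MISS WT E2, MISS KO placebo and MISS WT placebo with 4 each. Surgery was done at 4 weeks of age, 3 weeks before treatment, and every mouse received castor oil under the skin, with 8 µg/kg of 17β-estradiol (E2) or with 0 µg/kg (placebo), 6 h before the uterus was taken. The background was C57BL6/J for AF2 mice and C57BL6/N for MISS mice, so that line and substrain cannot be told apart. From knowledge outside the labels, AF2 KO mice carry an estrogen receptor α, encoded by Esr1, without activation function 2, through which coactivators bind once hormone is present. The receptor of MISS KO mice lacks its palmitoylation site, so it is not held at the plasma membrane but still acts in the nucleus. Both mutations are carried in all cells of the body, and neither mutant is a null for the receptor.

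In the integrated stress response, kinases that sense amino acid shortage, unfolded protein, double-stranded RNA or haem shortage phosphorylate the translation factor eIF2α. General protein synthesis then slows, while the mRNA of the transcription factor ATF4 is translated better, and ATF4 raises genes of amino acid supply and redox balance. GDF15 and FGF21 are hormones secreted by stressed tissues. Arrays measure transcripts, so neither eIF2α phosphorylation nor ATF4 protein was seen here.

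ATF4 binds DNA as a dimer with a C/EBP protein at a composite element, written TGATGNAA. RefSeq promoter windows on GRCm38.p6, of 250 bases before to 50 bases after each start, were found for all 10 genes, 12 windows in all. Both strands were searched, and the motif was present in 5 of the 12 windows (41.7%), against 1304 of 32851 windows of all genes (3.97%). The 4 stretches that hold it upstream of the start, in Atf3, Chac1, Asns and Fgf21, are shown because they let the element be compared between genes of different response below. They run 5′ to 3′ on the strand of the gene, with the motif or its reverse complement in capitals.
Atf3 (chr1:191183396-191183483, minus strand): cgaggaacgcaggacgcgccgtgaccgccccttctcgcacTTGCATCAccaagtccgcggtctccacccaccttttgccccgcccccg
Chac1 (chr2:119351009-119351096, plus strand): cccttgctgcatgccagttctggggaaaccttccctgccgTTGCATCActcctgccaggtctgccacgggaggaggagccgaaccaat
Asns (chr6:7693210-7693272, minus strand): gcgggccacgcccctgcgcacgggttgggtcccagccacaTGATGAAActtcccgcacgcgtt
Fgf21 (chr7:45615582-45615669, minus strand): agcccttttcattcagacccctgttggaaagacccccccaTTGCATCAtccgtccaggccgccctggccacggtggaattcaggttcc

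The element began 110 bases before the start in Atf3, 193 in Chac1, 23 in Asns and 139 in Fgf21, and the fifth match lay 14 bases after the start of Trib3. The cyclic AMP response element TGACGTCA was in 0 of the 12 windows and in 1.79% of all windows. A match is a description of letters, and the lack of one says only that these letters are not in this window.

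Values below are log2 levels relative to the 75th percentile of the array, which was 531.8 to 1033 intensity units. Between 61.8 and 77.1% of probes were above background per array, with 0 saturated spots. Precision is limited by how many arrays there are. Each p-value sets a change against the spread of arrays within groups, estimated for a gene over all 8 groups together. The arrays came on 4 slides, each with 1 array of every group, save that slide 2 held none of AF2 KO E2. The level of Esr1 was 2.93 ± 0.12 in AF2 KO E2, 3.22 ± 0.29 in AF2 WT E2 (SD). Under placebo it was 2.95 ± 0.08 for AF2 KO against 3.42 ± 0.13 for AF2 WT, a difference of −0.47 ± 0.12 (SE, limma adjusted p = 0.0147). In the MISS line it was 3.25 ± 0.27 in MISS KO E2, 2.86 ± 0.12 in MISS WT E2, 3.26 ± 0.09 in MISS KO placebo and 3.21 ± 0.11 in MISS WT placebo. Esr1 has 4 probes on the array, and these levels come from the brightest of those tested. Its AF2 placebo call was not followed for this gene in other settings. Neither mutation need change the signal of this probe, so these levels do not check the genotype labels. All 15 markers of uterine tissue were above background on 31 of 31 arrays.

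Levels of the 10 genes were higher with estradiol in 3 of the 4 genotypes, and none of the members tested in AF2 KO uterus was called. In limma, 9 of the 9 members besides Fgf21 rose in MISS KO and 9 of 9 in MISS WT at a Benjamini-Hochberg adjusted p under 0.05, where 30.1% and 35.1% of all tested genes were called higher. The median log2 change of these 9 was 2.74 in MISS KO and 2.78 in MISS WT, against medians over all genes of 0.03 and 0.16. In AF2 KO uterus 0 of the 8 members tested passed and 0 had an unadjusted p under 0.05, in a comparison that called 3.68% of genes, and their changes spanned −0.57 to 0.32. In AF2 WT uterus, the response that chose the genes, the median of all 10, Fgf21 included, was 3.77 and the range 1.34 to 9.0. There 27.6% of all genes were called higher. E2 arrays of AF2 WT lay above its placebo arrays for all 10, as for 23.9% of all genes. E2 and placebo arrays did not overlap for 9 of these 9 genes in MISS KO and 8 of the 9 in MISS WT, as for 28.0% and 31.1% of all genes in the same direction. In AF2 KO they overlapped for all 8 tested members, and 16.6% of all genes had no overlap there. Fewer cells of a type and less RNA per cell cannot be told apart in whole uterus.

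**Figure D1:**
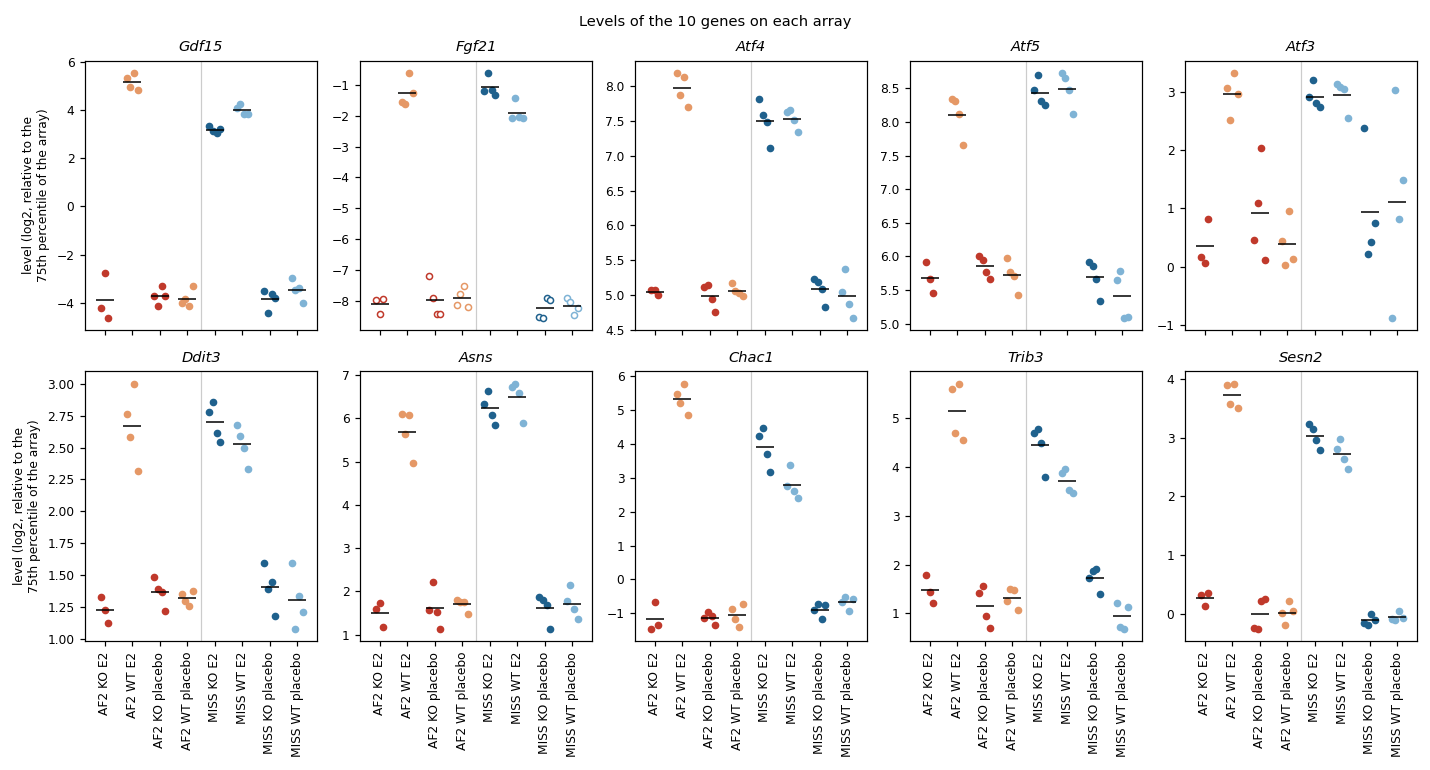
Log2 level of each of the 10 genes (vertical axis, relative to the 75th percentile of the array) on every array of the 8 groups; points are arrays, open where the probe was not well above background, and bars are group means. AF2 KO E2 arrays overlap the AF2 KO placebo arrays for all 8 members tested there, and 16.6% of all genes had no overlap. They also overlap for Gdf15 and Fgf21, which is a description only. E2 arrays of the other 3 genotypes lie higher, apart from Atf3, where a MISS WT placebo array reaches 3.03.

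Gdf15 encodes a hormone of the transforming growth factor β family that reduces food intake through a receptor in the hindbrain (probe at chr8:73153293-73153352, mm9). In the AF2 line its level was −4.64, −4.20 and −2.78 in KO E2 uterus and 4.83, 4.96, 5.34 and 5.55 in WT E2 uterus, against −4.14, −3.74, −3.72 and −3.32 in KO placebo and −4.15, −4.02, −3.84 and −3.31 in WT placebo. In the MISS line it was 3.06, 3.13, 3.23 and 3.36 in KO E2 uterus and 3.82, 3.85, 4.09 and 4.25 in WT E2 uterus, against −4.41, −3.80, −3.65 and −3.53 in KO placebo and −4.02, −3.49, −3.39 and −2.99 in WT placebo. No E2 array of AF2 WT, MISS KO or MISS WT came near a placebo array, whereas AF2 KO E2 spanned the placebo range. Gdf15 rose in MISS KO by 7.04 ± 0.29 (log2 ± SE, 132-fold, limma adjusted p = 6.64e-17) and in MISS WT by 7.48 ± 0.29 (178-fold, adjusted p = 1.89e-17). These ranked 7 and 5 by change among all tested genes. The AF2 WT change of 9.0 ± 0.29, or 512-fold, ranked 1, and the AF2 KO change was −0.14 ± 0.31, with a 95% interval of −0.78 to 0.50. With normexp background correction the folds were 60.5-fold in MISS KO and 93.7-fold in MISS WT, on log2 changes of 5.92 and 6.55.

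Fgf21 encodes an endocrine fibroblast growth factor known mainly from liver, where it answers fasting and amino acid shortage (probe at chr7:52869305-52869364, mm9). Its probe was above background on all 12 E2 arrays of AF2 WT, MISS KO and MISS WT, and on none of the 3 AF2 KO E2 arrays or of the 16 placebo arrays. Levels were −1.60, −1.55, −1.27 and −0.60 in AF2 WT E2, −1.33, −1.20, −1.15 and −0.61 in MISS KO E2, and −2.08, −2.06, −2.03 and −1.43 in MISS WT E2. A floor was set on each array of the lower group at its dimmest probe marked above background. Against it, Fgf21 was at least 37.5-fold higher with E2 in MISS KO and at least 19.9-fold higher in MISS WT. The floor is not a detection limit of the Fgf21 probe, so these bounds hold only for the main processing. The bound was 22.8-fold in AF2 WT, and AF2 KO E2 was at least 31.5-fold lower than AF2 WT E2. All fitted changes of Fgf21 rest on placebo values that are only limits. With normexp and its offset of 50 the fitted log2 changes were 3.0 in MISS KO and 2.41 in MISS WT, smaller than these bounds, and they were 3.73 and 2.97 in the series matrix. The size of the change thus differs with the processing, and the cause was not tested.

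Lists of markers of other cell types were read beside these values, where 30.1% of all genes were called higher and 27.3% lower in MISS KO, and 35.1% higher and 27.1% lower in MISS WT. Of 10 tested macrophage markers, 2 were called higher and 4 lower in MISS KO, and 1 higher and 5 lower in MISS WT. Their mean level per array was 0.84 to 1.59 in MISS KO E2 and 1.30 to 1.58 in MISS WT E2, against 1.06 to 1.44 in MISS KO placebo and 1.37 to 2.38 in MISS WT placebo. Of 10 adipocyte markers, 0 were called higher and 1 lower in MISS KO, and 1 higher and 2 lower in MISS WT, and their mean level varied widely within groups, such as −2.26 to 1.60 in MISS KO E2. Of 10 liver and pancreas markers, 6 were not tested, and these were above background on 0 (Apoa1) to 7 (Alb) of 31 arrays. The other 4 (Serpina1a, Cela1, Amy2a5 and Ins2) were above background on all 31. Of them 0 were called higher and 1 lower in MISS KO (Amy2a5, −1.92 ± 0.18), and 0 higher and 2 lower in MISS WT (Amy2a5, −1.81 ± 0.18, and Serpina1a, −1.35 ± 0.36). The part of other cell types in the results was not tested.

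Of the transcription factors, Atf4, the centre of the pathway, rose by 2.41 ± 0.14 in MISS KO (5.31-fold, limma adjusted p = 9.36e-14) and by 2.54 ± 0.14 in MISS WT (5.81-fold, adjusted p = 2.62e-14). Its level was 7.11, 7.48, 7.59 and 7.81 in MISS KO E2 and 7.34, 7.51, 7.63 and 7.65 in MISS WT E2, against 4.83, 5.09, 5.19 and 5.23 in MISS KO placebo and 4.67, 4.88, 5.05 and 5.37 in MISS WT placebo. In AF2 KO E2 the level was 5.0, 5.07 and 5.07, within the 4.76 to 5.15 of AF2 KO placebo. Its 2 probes, at chr15:80086639-80086698 and chr15:80087902-80087961 on mm9, gave changes of 2.90 and 2.41 in MISS KO and of 2.71 and 2.54 in MISS WT. The change in AF2 WT was 2.91 ± 0.14.

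Atf5, a close relative of Atf4 whose protein acts in mitochondrial stress, rose by 2.74 ± 0.18 in MISS KO and 3.09 ± 0.18 in MISS WT (limma adjusted p = 8.09e-13 and 6.00e-14). Its arrays spanned 8.25 to 8.70 in MISS KO E2 and 8.12 to 8.73 in MISS WT E2, against 5.33 to 5.92 and 5.08 to 5.78 in the placebo groups of MISS KO and MISS WT. Ddit3 encodes CHOP, which acts in cell death under lasting endoplasmic reticulum (ER) stress. It had the smallest change of the 10 genes in MISS KO, MISS WT and AF2 WT, with 1.29 ± 0.12 in MISS KO, 1.22 ± 0.12 in MISS WT (2.44-fold and 2.33-fold, adjusted p = 9.20e-10 and 2.40e-09) and 1.34 ± 0.12 in AF2 WT. E2 and placebo arrays were still apart, at 2.54 to 2.86 against 1.18 to 1.60 in MISS KO, and at 2.33 to 2.68 against 1.08 to 1.60 in MISS WT.

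Atf3, an immediate early stress factor, varied less among E2 arrays than among placebo arrays. Its level was 2.74, 2.80, 2.91 and 3.20 in MISS KO E2 and 2.54, 3.05, 3.07 and 3.13 in MISS WT E2, against 0.22, 0.42, 0.75 and 2.37 in MISS KO placebo and −0.88, 0.82, 1.49 and 3.03 in MISS WT placebo. The SD was 1.62 in MISS WT placebo and 0.28 in MISS WT E2, and 1 placebo array of MISS WT lay inside the range of the E2 arrays. Atf3 rose by 1.97 ± 0.53 in MISS KO and 1.84 ± 0.53 in MISS WT (limma adjusted p = 0.00245 and 0.00416). Without MISS WT placebo replicate 1, the lowest array, the MISS WT change was 1.17, and without replicate 2, the highest, it was 2.48. Within slides it ran from 0.04 to 4.02 in MISS WT and from 0.54 to 2.98 in MISS KO. AF2 KO E2 arrays were at 0.07, 0.17 and 0.82, against 0.12, 0.45, 1.09 and 2.03 in AF2 KO placebo.

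Asns makes asparagine, and is a classic ATF4 target. Its level was 5.85, 6.08, 6.34 and 6.64 in MISS KO E2 and 5.89, 6.58, 6.73 and 6.80 in MISS WT E2, against 1.13, 1.68, 1.81 and 1.88 in MISS KO placebo and 1.37, 1.59, 1.77 and 2.14 in MISS WT placebo. The groups were far apart, and Asns rose by 4.6 ± 0.25 in MISS KO (24.3-fold, limma adjusted p = 2.05e-14) and 4.78 ± 0.25 in MISS WT (27.5-fold, adjusted p = 7.61e-15). It was 3.99 ± 0.25 higher in AF2 WT, and in AF2 KO the change was −0.11 ± 0.27 (adjusted p = 0.896).

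Chac1 degrades glutathione. Its level was 3.18, 3.71, 4.23 and 4.48 in MISS KO E2 and 2.41, 2.6, 2.75 and 3.39 in MISS WT E2, against −1.16, −0.90, −0.76 and −0.73 in MISS KO placebo and −0.92, −0.65, −0.57 and −0.53 in MISS WT placebo. It rose by 4.79 ± 0.24 in MISS KO (27.6-fold, limma adjusted p = 4.72e-15) and by 3.45 ± 0.24 in MISS WT (11-fold, adjusted p = 2.33e-12). In AF2 WT E2 it reached 4.84, 5.22, 5.46 and 5.78, against −1.41 to −0.73 in AF2 WT placebo. AF2 KO E2 arrays, at −1.46, −1.34 and −0.66, surrounded the −1.35 to −0.96 of AF2 KO placebo.

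Trib3, a pseudokinase that ATF4 and CHOP induce and that in turn restrains ATF4, rose by 2.73 ± 0.25 in MISS KO and 2.77 ± 0.25 in MISS WT (limma adjusted p = 2.90e-10 and 1.97e-10). Its level was 3.80, 4.5, 4.69 and 4.79 in MISS KO E2 and 3.47, 3.53, 3.88 and 3.96 in MISS WT E2, against 1.39, 1.72, 1.87 and 1.90 in MISS KO placebo and 0.68, 0.73, 1.14 and 1.22 in MISS WT placebo. Placebo arrays of MISS KO lay above those of MISS WT, and E2 arrays overlapped. Sesn2, a leucine-binding inhibitor of mTORC1, rose by 3.15 ± 0.13 in MISS KO and 2.78 ± 0.13 in MISS WT (8.87-fold and 6.86-fold, adjusted p = 9.52e-17 and 8.30e-16). In AF2 KO it had the lowest p of the 8 members tested, with a change of 0.28 ± 0.14 and an adjusted p of 0.319.

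**Figure D2:**
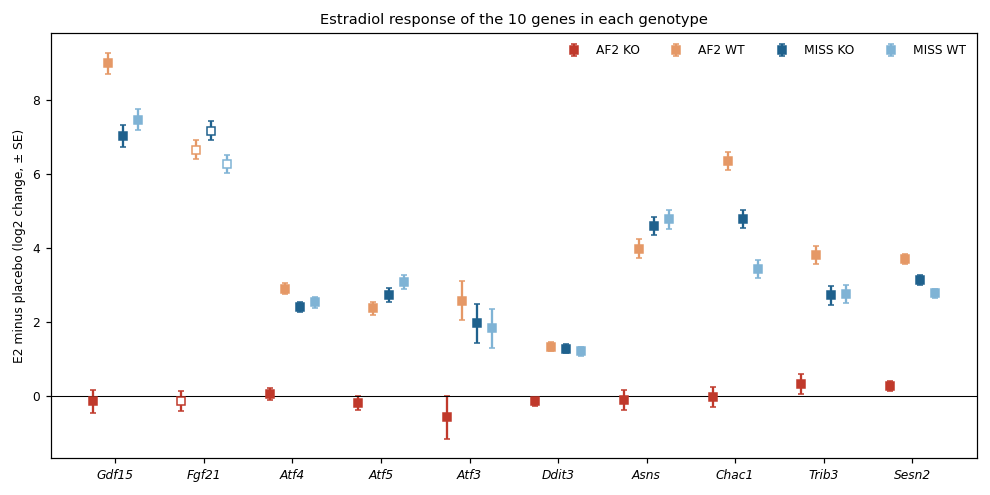
Log2 change with E2 (E2 minus placebo, vertical axis) of the 10 genes in AF2 KO, AF2 WT, MISS KO and MISS WT, with bars of 1 SE of the limma model; open squares mark Fgf21, whose placebo values are not above background. AF2 KO values lie between −0.57 and 0.32, and those of the other genotypes between 1.22 and 9.0.

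Whether the mutant receptor changed the response in the MISS line was tested by the difference of the E2 responses, MISS KO minus MISS WT. Of the 9 members besides Fgf21, 0 were called in limma, against 0.898% of all genes, and 1 had an unadjusted p under 0.05. For this gene, Chac1, the difference was 1.33 ± 0.35, a 2.52-fold larger ratio in MISS KO, with a 95% interval of 0.62 to 2.05 and an adjusted p of 0.0676. It was positive on all 4 slides, from 0.96 to 1.73, and its adjusted p was under 0.05 in 5 of 9 other ways of processing and ranged there from 0.0218 to 0.0975. Leaving out single arrays gave 0.016 to 0.158, with the threshold passed without MISS WT E2 replicate 2 (0.0311) and without MISS KO E2 replicate 4 (0.016). The fitted difference for Fgf21 was 0.90 ± 0.36, with both placebo groups below background, and is a description only.

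For the other 8 genes the differences ran from −0.44 to 0.37. The 95% interval was −1.28 to 0.40 for Gdf15, −0.55 to 0.29 for Atf4, −0.88 to 0.18 for Atf5, −0.29 to 0.43 for Ddit3, −0.92 to 0.56 for Asns, −0.76 to 0.68 for Trib3 and −0.01 to 0.75 for Sesn2. For Atf3 it was −1.42 to 1.69, an interval wide enough to hold a difference of over 2-fold either way. Under E2 alone, MISS KO arrays were all below MISS WT arrays for Gdf15 and all above them for Fgf21, and the groups overlapped for the other 8 genes. Of all genes, 5.01% lay wholly below and 3.06% wholly above in that comparison.

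**Figure D3:**
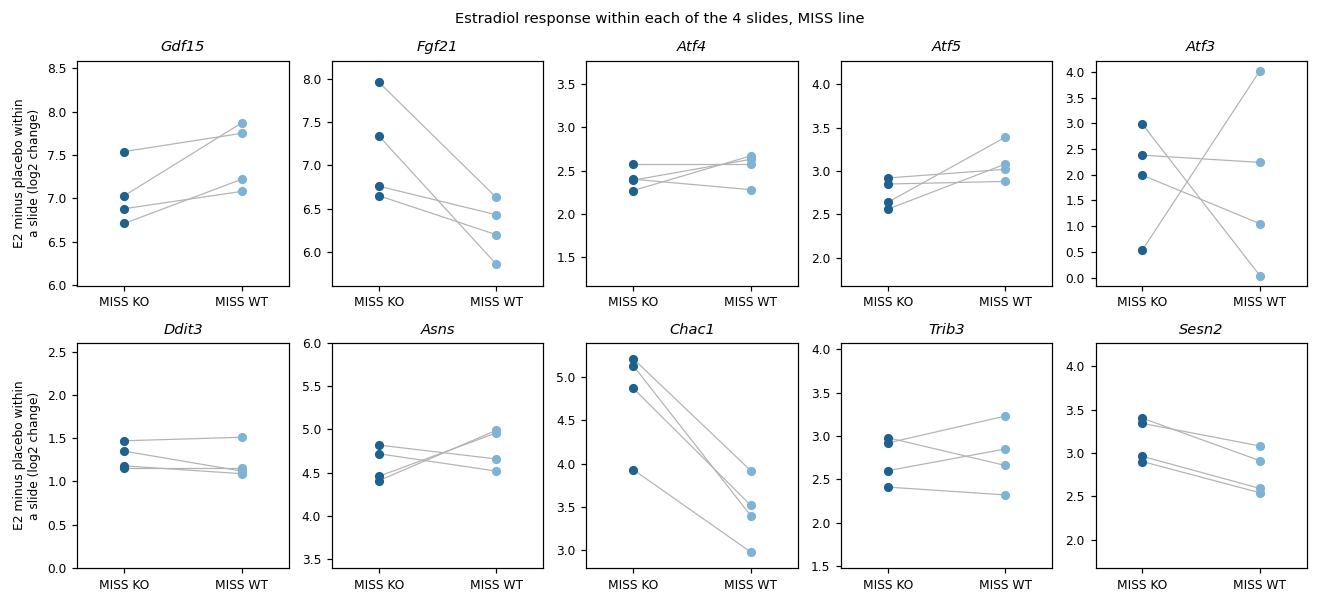
Log2 change with E2 within each slide (1 E2 array minus 1 placebo array, vertical axis) in MISS KO and MISS WT, with a grey line for each of the 4 slides; each panel has its own scale. Chac1, Fgf21 and Sesn2 were higher and Gdf15 and Atf5 lower in MISS KO on all 4 slides, while the lines of Atf3 cross. How many of all genes keep 1 direction on all 4 slides was not counted. In the main fit none of Chac1, Sesn2, Gdf15 and Atf5 was called for the difference of responses. Changes of Fgf21 use placebo values not above background and are a description only.

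In the AF2 line the corresponding difference, AF2 KO minus AF2 WT, was −9.14 ± 0.42 for Gdf15, −6.39 ± 0.36 for Chac1, −4.10 ± 0.37 for Asns, −2.86 ± 0.21 for Atf4 and −1.48 ± 0.18 for Ddit3. These values contain the response that chose the genes. E2 arrays of AF2 KO lay below those of AF2 WT for all 10 genes, as for 25.4% of all genes. On a log2 scale, the interval of the AF2 KO response itself was −0.27 to 0.37 for Atf4, −0.41 to 0.14 for Ddit3 and −0.68 to 0.45 for Asns. It was −0.58 to 0.23 for Atf5, −0.57 to 0.52 for Chac1, −0.23 to 0.87 for Trib3 and −0.01 to 0.57 for Sesn2. For Atf3 it was −1.75 to 0.62, the widest of these.

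Comparisons without hormone called none of the members. In limma 0 of the 9 members besides Fgf21, which was below background in every placebo group, were called in AF2 KO against AF2 WT placebo, with 0 at an unadjusted p under 0.05 and 9.04% of all genes called. Those AF2 WT arrays also enter the response that chose the genes. In MISS KO against MISS WT placebo 0 were called, against 0.850% of all genes, and 1 had an unadjusted p under 0.05. This was Trib3, higher in MISS KO by 0.78 ± 0.25 with an adjusted p of 0.151, and its 4 MISS KO arrays lay above all 4 MISS WT arrays, as for 3.25% of all genes. With slide as a block its adjusted p was 0.0376. In MISS WT against AF2 WT placebo 0 of the 9 were called, with 0 at an unadjusted p under 0.05 and 11.7% of all genes called. This comparison too uses AF2 WT placebo arrays of the response that chose the genes. With slide as a block Atf5 was called lower in MISS WT there, by −0.32 (adjusted p = 0.00745).

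The 2 wild types differed in size of response from gene to gene, which is described here without a test because the AF2 WT response is part of it. The difference MISS WT minus AF2 WT was −2.91 ± 0.35 for Chac1, −1.52 ± 0.41 for Gdf15, −1.06 ± 0.35 for Trib3 and −0.93 ± 0.19 for Sesn2. It was positive for 2 of the 10 genes, Asns with 0.79 ± 0.36 and Atf5 with 0.71 ± 0.26. Within slides Chac1 ran from −3.67 to −2.46, Gdf15 from −2.48 to −0.27, Trib3 from −1.69 to 0.01 and Sesn2 from −1.13 to −0.69. Asns ran from 0.67 to 1.02 and Atf5 from 0.34 to 0.98. The order of group levels followed: Chac1 was highest in AF2 WT E2, then MISS KO E2, then MISS WT E2, with the last 2 overlapping, and its 5 other group means lay between −1.16 and −0.67. Gdf15 was highest in AF2 WT E2, then MISS WT E2, then MISS KO E2, and its 5 other group means lay between −3.87 and −3.47.

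Other genes of the pathway, with those of the neighbouring ER and mitochondrial unfolded protein responses, were read from 7 lists with 112 tested genes besides the 10. Of these, 96 were called higher and 6 lower in MISS KO, and 97 higher and 5 lower in MISS WT, with median log2 changes of 1.36 and 1.5. Adm2, which passed the filter on dim probes only through E2 groups, is among those called higher in both. Over all genes 30.1% were called higher and 27.3% lower in MISS KO, and 35.1% higher and 27.1% lower in MISS WT. In AF2 KO limma called 1 of the 112 (Pycr1), or 0.893%, against 3.68% of all genes, and 11 had an unadjusted p under 0.05. For the MISS KO minus MISS WT difference of responses limma called 6 of the 112 (5.36%), 2 higher and 4 lower, against 0.898% of all genes. These lists were drawn up with the earlier results known.

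The list of eIF2α kinases, phosphatase subunits and eIF2 and eIF2B subunits had 12 of 17 genes called higher and 1 lower in MISS KO, and 13 higher and 0 lower in MISS WT, with medians of 0.94 and 1.02. Eif2s2 and Eif2s1, subunits of eIF2, rose by 3.23 ± 0.15 and 2.47 ± 0.15 in MISS WT (limma adjusted p = 8.01e-16 and 8.99e-14), and the exchange factor subunit Eif2b3 by 2.26 ± 0.08. Ppp1r15b, which directs eIF2α dephosphorylation, rose by 1.77 ± 0.15. Among the 4 kinases, chosen for naming after their values were seen, Eif2ak1, the haem-regulated kinase, rose by 1.21 ± 0.07 in MISS KO and 1.1 ± 0.07 in MISS WT. Eif2ak4, which senses amino acid shortage, was at −0.22 ± 0.16 and −0.11 ± 0.16 and was called in neither. Eif2ak2, the kinase of double-stranded RNA, was at 0.34 ± 0.16 and 0.15 ± 0.16 and was called in neither. Eif2ak3, the kinase of ER stress also called PERK, fell by 0.85 in MISS KO (SE 0.11) and was at −0.14 ± 0.11 in MISS WT (adjusted p = 0.257). The difference of these responses was −0.71 ± 0.15 (adjusted p = 0.0198), a call lost (up to 0.0548) without MISS KO placebo replicate 1 or 2, MISS WT placebo replicate 3 or MISS WT E2 replicate 3.

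Other ATF4 targets and partners had 15 of 20 genes called higher and 2 lower in MISS KO and the same counts in MISS WT. The genes called higher include Adm2, which like Fgf21 passed the filter on dim probes only through E2 groups, so its calls are no support. Adm2, a peptide hormone, was at least 10.4-fold higher in MISS KO and at least 26.7-fold higher in MISS WT, with placebo levels not above background. These bounds use the same kind of floor as for Fgf21 and hold only for the main processing. Gadd45a, a growth arrest gene, rose by 3.01 ± 0.21 in MISS WT (limma adjusted p = 1.42e-12). Slc7a11, the cystine transporter that supplies glutathione, rose by 3.79 ± 0.40 in MISS KO and 2.98 ± 0.40 in MISS WT. Without hormone Slc7a11 was lower in both mutants, by −3.44 ± 0.40 in AF2 KO against AF2 WT (adjusted p = 2.61e-06) and by −1.79 ± 0.40 in MISS KO against MISS WT (adjusted p = 0.0288). The MISS call was lost (up to 0.16) without MISS KO placebo replicate 1, 2 or 4 or MISS WT placebo replicate 1 or 3. Its level was −5.75 ± 0.10 in AF2 KO placebo, where 2 of 4 arrays were above background, and −2.31 ± 0.49 in AF2 WT placebo, and it was −4.14 ± 0.45 in MISS KO placebo and −2.36 ± 0.74 in MISS WT placebo. Vldlr, a lipoprotein receptor, had the same pattern, with −1.76 ± 0.18 in AF2 KO and −1.01 ± 0.18 in MISS KO against their wild types under placebo (adjusted p = 2.43e-07 and 0.00339). Its response was larger in MISS KO than in MISS WT by 1.26 ± 0.25 (adjusted p = 0.00902). Herpud1, an ER protein of degradation, responded less in MISS KO, by −0.81 ± 0.13 (adjusted p = 0.00134).

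Amino acid transporters had 13 of 15 genes called higher and 2 lower in MISS KO and in MISS WT alike. Slc7a5, the large neutral amino acid carrier, rose by 4.13 ± 0.18 in MISS KO and 4.33 ± 0.18 in MISS WT (limma adjusted p = 1.88e-16 and 6.28e-17), and Slc7a1, for cationic amino acids, by 3.43 ± 0.17 in MISS WT. The response of the glutamine carrier Slc38a3 was smaller in MISS KO by −1.45 ± 0.34 (adjusted p = 0.0366), and that of Slc38a1 larger by 0.69 ± 0.14 (adjusted p = 0.0145). The Slc38a3 call was lost with no filter on dim probes (0.0531) and without any 1 of 12 MISS arrays (up to 0.0903), and the Slc38a1 call with the mean over probes (0.0751).

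Cytosolic tRNA synthetases had 19 of 20 genes called higher and 0 lower in MISS KO and in MISS WT, with median changes of 2.18 and 2.08. Aars rose by 4.04 ± 0.18 and 4.08 ± 0.18, and Yars by 3.67 ± 0.18 and 3.86 ± 0.18. Enzymes of serine, glycine and one-carbon metabolism had 11 of 12 genes called higher and 0 lower in each, with medians of 2.99 and 3.07. Mthfd2, the mitochondrial folate enzyme, rose by 6.86 ± 0.29 in MISS KO and 6.56 ± 0.29 in MISS WT (limma adjusted p = 1.02e-16 and 1.90e-16), and Psat1 and Phgdh, of serine synthesis, by 4.08 ± 0.12 and 3.38 ± 0.16 in MISS WT. The proline enzyme Pycr1 rose by 3.90 ± 0.32 in MISS KO and fell by 1.31 in AF2 KO (SE 0.35, adjusted p = 0.0324). The AF2 KO call was kept in 6 of 9 other settings and lost with normexp, the strict filter and the mean over probes (adjusted p up to 0.924), and without AF2 KO E2 replicate 1 or 3 or AF2 KO placebo replicate 1 or 4 (up to 0.27).

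The XBP1 and ATF6 arms of the ER unfolded protein response had 19 of 21 genes called higher and 1 lower in MISS KO, and 20 higher and 1 lower in MISS WT, with medians of 0.99 and 1.33. Manf, a secreted ER stress factor, rose by 2.35 ± 0.16 in MISS KO and 2.86 ± 0.16 in MISS WT, and the chaperone Hspa5 by 2.50 ± 0.12 in MISS WT. Derl3, of ER degradation, fell by 2.46 and 2.52 in MISS KO and MISS WT (SE 0.27). Dnajb9, an ER co-chaperone, responded less in MISS KO, by −0.99 ± 0.12 (limma adjusted p = 8.23e-05). Of 9 genes of the mitochondrial unfolded protein response, 9 were called higher in MISS KO and 8 in MISS WT, led by the chaperones Hspa9 (2.34 ± 0.15 and 2.53 ± 0.15) and Hspd1 (1.92 ± 0.09 and 2.19 ± 0.09).

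Gdf15 and Sesn2 are also known targets of p53. Of 16 other p53 targets, a list apart from those 7, 12 were called higher and 2 lower in MISS KO, and 10 higher and 2 lower in MISS WT. Over all genes 30.1% were called higher and 27.3% lower in MISS KO, and 35.1% and 27.1% in MISS WT. The list medians were 0.84 in MISS KO and 0.87 in MISS WT. The cell cycle inhibitor Cdkn1a rose by 3.51 ± 0.18 and 3.87 ± 0.18. Sesn1, the relative of Sesn2, moved the other way and fell by 3.44 and 3.32 (SE 0.13, limma adjusted p = 1.85e-17 and 2.98e-17). In MISS WT Aen rose by 3.24 ± 0.2 and Trp53inp1 fell by 2.37.

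Of the receptors that bind the 2 hormones, Gfral, the hindbrain receptor of GDF15, was above background on 0 of 31 arrays. Its co-receptor Ret rose by 2.84 ± 0.33 in MISS KO and 2.82 ± 0.33 in MISS WT (limma adjusted p = 2.49e-08 and 2.68e-08), and its AF2 KO levels were −4.22 ± 0.12 with E2 and −4.01 ± 0.40 with placebo. Klb, the co-receptor that FGF21 needs, was above background on 28 arrays and changed by 0.16 ± 0.40 in MISS KO and −0.54 ± 0.40 in MISS WT, called in neither. Fgfr3 rose by 1.95 ± 0.17 and 2.22 ± 0.17. In MISS WT Fgfr2 changed by −0.80 ± 0.14 (adjusted p = 1.71e-05) and Fgfr4 by −0.39 ± 0.17 (adjusted p = 0.0499, kept in 2 of 9 other settings). Both were also called lower in MISS KO, and Fgfr1 was called in neither. Of the 6 receptors and co-receptors tested, 2 were thus called higher and 2 lower in each. Over all genes 30.1% were called higher and 27.3% lower in MISS KO, and 35.1% and 27.1% in MISS WT.

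**Figure D4:**
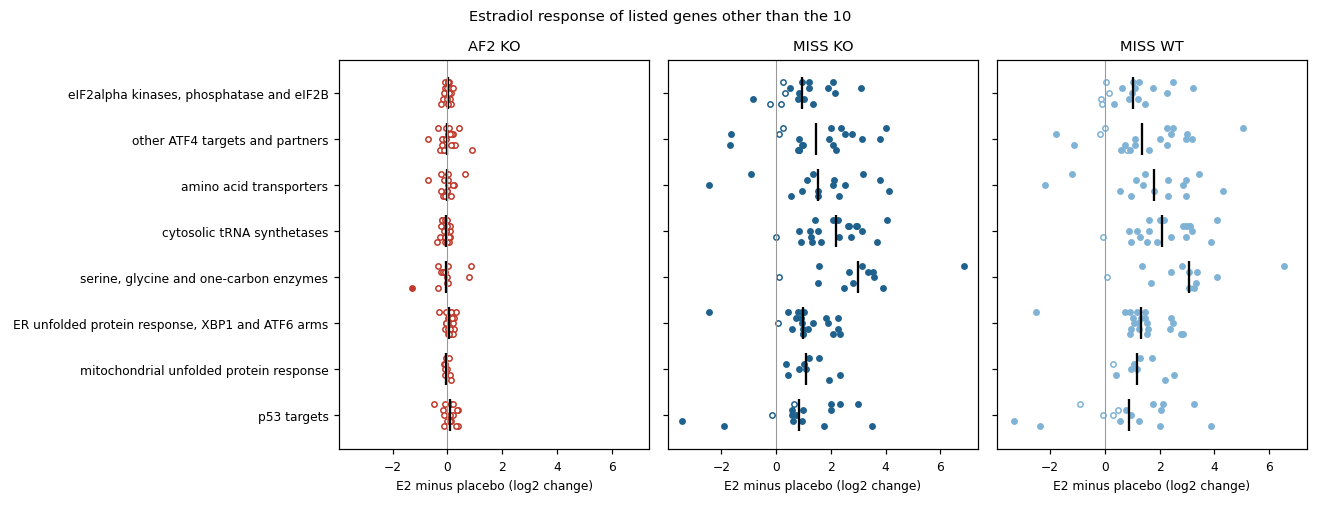
Log2 change with E2 (horizontal axis) of the listed genes other than the 10, in AF2 KO, MISS KO and MISS WT; points are genes, filled where called at an adjusted p under 0.05, and black lines are list medians. In AF2 KO 1 of 128 genes, p53 targets included, is filled, where 3.68% of all genes were called. List medians in MISS KO and MISS WT lie to the right of 0, with the serine, glycine and one-carbon enzymes at 2.99 and 3.07.

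The genes most like 4 of the 10 were sought by the root mean square difference of the 8 group means after centring, on the log2 scale. Nearest to Gdf15 were Krt87, a hair keratin, at 0.40 and a pair of lincRNA features of chromosome 8 at 0.54 and 0.73. Krt87 changed by 0.20 in AF2 KO, 8.04 in AF2 WT, 6.78 in MISS KO and 6.90 in MISS WT. Nearest to Chac1 were a lincRNA feature of chromosome 11 at 0.55, and Gm22 and Krt81, another hair keratin, both at 0.57. Atf4 was closest to Pnp (0.09), of purine salvage, and to Nolc1 and Dennd2a (0.11 each). Asns was closest to Sh2d5 (0.09), Hcrtr1 (0.20), an orexin receptor, and Rrp12 (0.23), of ribosome assembly.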

How the data were processed

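Per the file headers, the deposited processed signal is an intensity from Agilent Feature Extraction 10.10.1.1, with background subtracted and no scaling between arrays, and each spot carries a mark for a signal well above background. The authors' deposited series matrix holds log2 values of 43753 probes with equal column medians of 7.56. Its further steps are not given in the sources used here, and it served as an alternative. The submitters' processing notes also name limma, without a version.

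From the 62976 spots of each array, controls and outlier-marked spots were left out, spots were averaged on the log2 scale to 55681 probes, and the 75th percentile of the array was subtracted. Tests took the 40336 probes that were above background throughout 1 or more groups, and the brightest stood for the gene (27060 genes). By accession 27235 probes were matched to current gene names. limma 3.58.1 in R 4.3.3 fitted 8 group means (23 residual degrees of freedom), with Benjamini-Hochberg adjustment over all genes. Code was tested on simulated data.

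Members, lists and tests were chosen with earlier results of these data known. Named from each list were up to 4 genes of largest change called in MISS WT and up to 2 in each other tested comparison, from which a selection is printed. Alternatives were background correction, scaling, filters, slide as a block, the series matrix and leaving out each array. Probe coordinates (mm9) come from the array files, and exons were not analysed here.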

Additional observations from a re-analysis of the deposited data

Results flagged for a closer look

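In 3 of 70 sets of 1 gene in 1 group, 1 array stood apart from the others by a gap above the 95% critical value of Dixon's test, and chance gives about 1 in 20. Fgf21 was at −1.43 in MISS WT E2 replicate 2, against −2.08 to −2.03 on the other arrays of that group. Atf3 was at 2.54 in MISS WT E2 replicate 4, against 3.05 to 3.13 on the others. Asns was at 1.47 in AF2 WT placebo replicate 4, against 1.76 to 1.81 on the others.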

How the results depend on the processing

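No paired analysis was possible because replicate numbers only name samples; arrays were instead matched by slide, as a block and within slides. Over 40 settings, members called besides Fgf21 were 9 of 9 in MISS KO and in MISS WT, and 0 of the 8 tested in AF2 KO. In the MISS difference of responses 1 member (Chac1) was called with normexp, quantile normalization, the percentile over probes above background on all arrays, slide as a block and the series matrix, and 0 or 1 when single arrays were left out. With slide as a block 1 member was also called in each of MISS KO against WT placebo (Trib3) and MISS WT against AF2 WT placebo (Atf5). Scaling moved the median change of all genes in MISS WT to −0.09 from 0.16, and in MISS KO to −0.17 from 0.03, with the percentile over detected probes. The share of calls that were higher was then 41.7% against 56.4% in MISS WT, 39.9% against 52.5% in MISS KO and 35% against 47.9% in AF2 WT.

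Medians of members here are over all 10 genes, with the fitted change of Fgf21 included. The median was 3.77 in AF2 WT, against 3.25 (normexp), 3.48 (quantile), 3.41 (series matrix), 4.08 (slide 1) and 3.48 (slide 4). In MISS WT it was 2.94 (2.78 without Fgf21), against 2.63 (series matrix) and 3.24 (slide 1). For AF2 KO minus WT it was −3.47, and −3.17, −3.15, −3.86 and −3.09 with normexp, quantile, median scaling and the series matrix, −3.94 on slide 3 and −3.17 on slide 4. For MISS WT minus AF2 WT it was −0.26 on slide 2, where Fgf21 (0.43), Ddit3 (0.23) and Trib3 (0.01) changed sign, as did Atf3 on slide 1 (1.39) and Ddit3 on slide 4 (0.18). The cause was not tested.

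Genes called in AF2 KO were 996, against 1672 (normexp), 643 (quantile), 2569 (median scaling), 582 (strict filter, fewer genes tested) and 2770 (slide block), and 239 (without AF2 KO E2 replicate 1) to 1107 with single arrays left out, including 555 to 625 without AF2 KO E2 replicate 2 or AF2 KO placebo replicate 1, 2 or 4. Median scaling called 665 higher and 1904 lower there, against 846 and 150, and called up to 4 tRNA synthetases lower. AF2 KO against WT placebo gave 2446, against 3951 (normexp), 4629 (median scaling), 5446 (slide block) and 1579 (without AF2 WT placebo replicate 3) to 2782 with arrays left out. MISS WT against AF2 WT placebo gave 3153, against 5421 (normexp), 5649 (slide block) and 1932 (without the same array) to 3607. MISS KO against WT placebo gave 230, against 839 (slide block), 375 (series matrix) and 59 (without MISS WT placebo replicate 3) to 672 (without its replicate 4), with 99 to 146 without MISS WT placebo replicate 1 or any 1 MISS KO placebo array. The MISS difference gave 243, against 1119 (slide block) and 138 to 354, with 138, 160 and 161 without MISS WT placebo replicate 3, MISS KO placebo replicate 1 and MISS WT E2 replicate 3. MISS WT minus AF2 WT gave 2571, against 5819 (slide block). Fgf21 below background limits its folds to bounds, which hold only for the main processing.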
